A study of Mus musculus with 48 samples.

Results

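The genes described here encode structural proteins, a lipid enzyme and a transcription factor of myelin and of the oligodendrocytes that make it: Mbp, Mobp, Mog, Mag, Cnp, Cldn11, Mal, Fa2h and Olig1. They were chosen by name, and every probe set whose only gene symbol in the array's annotation was one of these 9 was taken. That gave 21 of the 22626 probe sets analysed here, with 8 for Mbp, 3 each for Cnp and Mobp, 2 for Mal and 1 for each of the others. The series measured transcription in mouse tissues on Affymetrix arrays, and its title names differences between the sexes. Male and female hypothalamus, testis, ovary, male and female kidney, and male and female liver gave 8 groups of 3 RNA samples, each sample hybridised to 2 arrays whose values were averaged. Per the labels, the RNA was purchased, it was total RNA for hypothalamus and polyA-selected RNA for testis, ovary, kidney and liver, and each sample was a pool of 10 animals, although another label field gives total RNA for every sample. Strain, age and any genotype are not given in the labels, and no agent is named. The RNA type therefore runs along every comparison of hypothalamus with another tissue, and tissue and RNA type cannot be told apart there. Whether the 3 samples of 1 group were pooled from different animals is not stated, so the p-values rest on differences among samples that could be technical only. Precision is limited by the 3 RNA samples of each group, since the 2 arrays of a sample were averaged.

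Myelin is the stack of membrane that oligodendrocytes wrap around axons in the brain and Schwann cells wrap around axons in peripheral nerves, and it speeds the conduction of impulses. Its sheets are held together by basic proteins on the cytoplasmic face and by adhesion proteins on the outer face, and its membrane is rich in galactolipids that carry hydroxylated fatty acids. Several of its components also serve in epithelia, where they build tight junctions or sort lipids and proteins to the apical membrane.

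Promoter sequence is shown for 4 members whose levels outside the brain differ, as described below: Mobp and Mog, for which no other tissue came near hypothalamus, Cldn11, which was also measured well above the dim range in testis, and Mal, which was also bright in kidney. Each line gives the 250 bases before the gene's start on the gene's own strand, from RefSeq on assembly GRCm38.p6. The windows lie at chr9:120149492-120149741 (plus strand) for Mobp, chr17:37023399-37023648 (minus strand) for Mog, chr3:31149670-31149919 (plus strand) for Cldn11 and chr2:127656696-127656945 (minus strand) for Mal. Capitals mark matches to 2 kinds of motif, read on both strands. One kind was the E-box, read by basic helix-loop-helix factors such as Olig1, in the form CAGCTG or in the form with the letters CAGATG instead. The other kind was the SOX site, in the form ACAAAG, in the form that is spelled ACAATG, or in the form that is spelled ACAATA.
Mobp: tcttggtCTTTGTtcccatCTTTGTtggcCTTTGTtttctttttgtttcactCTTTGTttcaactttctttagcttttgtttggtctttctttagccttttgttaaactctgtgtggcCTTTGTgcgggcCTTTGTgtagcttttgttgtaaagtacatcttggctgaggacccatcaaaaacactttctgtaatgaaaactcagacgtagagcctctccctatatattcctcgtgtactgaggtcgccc
Mog: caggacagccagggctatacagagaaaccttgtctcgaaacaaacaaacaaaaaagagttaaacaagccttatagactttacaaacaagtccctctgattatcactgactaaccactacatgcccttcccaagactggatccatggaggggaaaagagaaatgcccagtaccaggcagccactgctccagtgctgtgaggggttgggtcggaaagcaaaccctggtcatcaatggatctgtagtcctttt
Cldn11: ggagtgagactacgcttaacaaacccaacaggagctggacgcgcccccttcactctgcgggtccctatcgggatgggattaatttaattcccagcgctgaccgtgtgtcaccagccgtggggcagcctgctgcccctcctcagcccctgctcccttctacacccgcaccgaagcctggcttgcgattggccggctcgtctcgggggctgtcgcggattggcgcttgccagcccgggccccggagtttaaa
Mal: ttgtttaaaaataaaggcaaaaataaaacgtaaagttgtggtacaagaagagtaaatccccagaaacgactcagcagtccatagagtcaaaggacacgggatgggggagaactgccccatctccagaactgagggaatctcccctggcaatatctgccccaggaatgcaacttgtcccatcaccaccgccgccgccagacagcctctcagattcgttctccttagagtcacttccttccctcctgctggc

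The Mobp window held 6 copies of CTTTGT, the reverse complement of ACAAAG, which do not overlap each other. None of the searched letters was found in the windows of Mog, Cldn11 and Mal. Windows of Mag and Cnp were also read: 2 of the 3 windows of Mag overlap and held the same 1 copy of CTTTGT, and the window of Cnp held 1 copy of ACAAAG. Of all 32851 promoter windows of this length, 30.5% held a SOX form, 16.5% held ACAAAG on either strand and 25.5% held an E-box form. A match describes letters only and is not a bound site.

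All 9 genes had a higher mean intensity in hypothalamus than in each of the other 4 tissues. For 7 of the 9 genes, and for 19 of the 21 probe sets, the 6 hypothalamus samples lay above all 18 samples of the other tissues, which held for 16% of all 22626 probe sets. The exceptions were Mal, with kidney at the level of hypothalamus, and Fa2h, with testis close to it. Where a gene has several probe sets, the one with the highest mean over the 24 samples stands for it, and values are intensities on the linear scale of the arrays. Differences are log2 differences of intensity plus a pseudocount of 48.3, tested with limma and adjusted over all probe sets that passed the filter on dim values (Benjamini-Hochberg, 0.05), and ± beside a difference is its SE. All 9 genes were tested in the 4 comparisons with hypothalamus, and Mobp, Mog and Olig1 passed the filter through their hypothalamus samples alone, as did Cldn11 against ovary, kidney and liver, Mbp against liver (2 of 6 liver samples above the level) and Mag against ovary (2 of 3 ovary samples). Those members had to differ in order to be tested there, so their counts and p-values are descriptions.

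**Figure D1:**
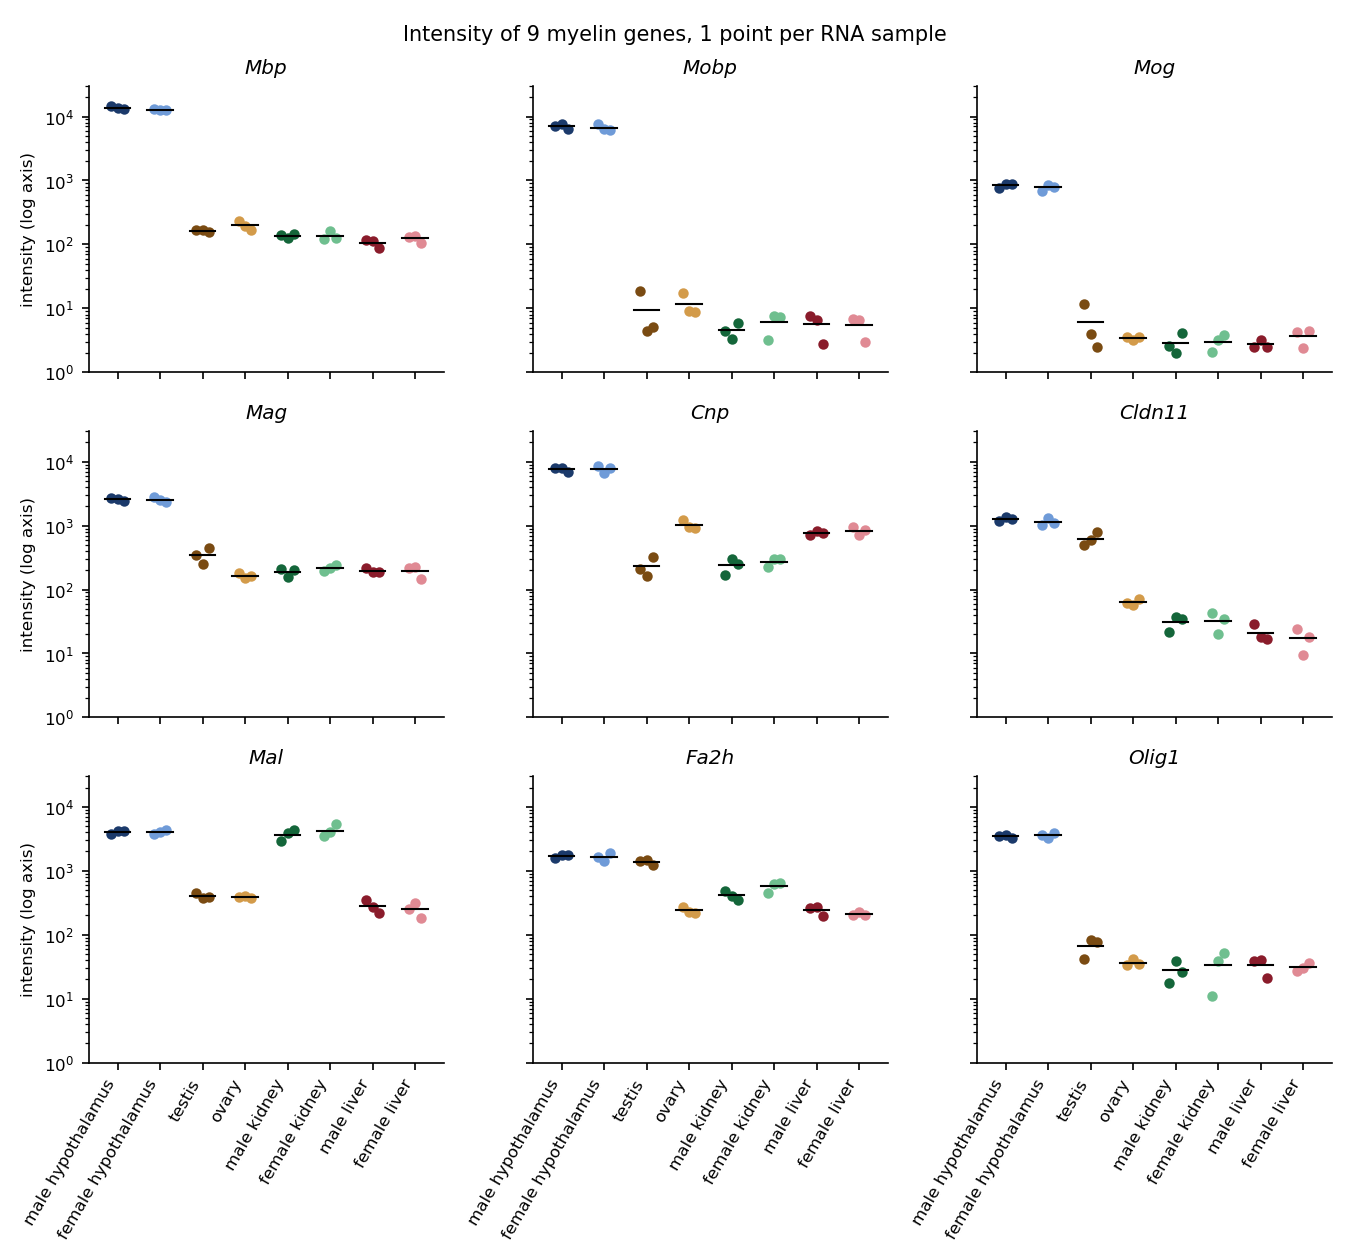
Intensity (log axis) of the 9 myelin genes in the 24 RNA samples, 1 point per sample, with the mean of each group of 3 as a line. Male and female hypothalamus stand at the left of each panel and lie above the other tissues for 7 genes, while Mal in hypothalamus (3694 to 4269) lies within the kidney values (2892 to 5322) and Fa2h in hypothalamus (1399 to 1911) overlaps testis (1216 to 1452).

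In hypothalamus against liver all 9 genes rose, with log2 differences of 2.67 to 7.0 and a median of 4.05. Of the 16167 probe sets tested there, 81.9% were called, 50.2% as higher in hypothalamus, and the median difference of all tested was 0.25. Against kidney 8 genes rose, where 46.3% of 15883 probe sets were called higher (78.8% in either direction), and the median was 4.05 for the genes and 0.18 for all tested. Against testis 9 genes rose, where 49.6% of 15725 were called higher (80.1% in either direction), with medians of 3.97 and 0.33. Against ovary 9 genes rose, where 37.5% of 15277 were called higher (75.8% in either direction), with medians of 3.63 and -0.002. With arrays centred on their medians, the median of all probe sets tested was -0.15 against liver, -0.15 against kidney, -0.11 against testis and -0.05 against ovary. Under that scaling the share of called probe sets that were higher in hypothalamus was 43.7% in place of 61.2% against liver, 42.1% in place of 58.8% against kidney and 46.2% in place of 62% against testis. Fewer cells of a type and less RNA per cell cannot be told apart in these tissue samples.

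**Figure D2:**
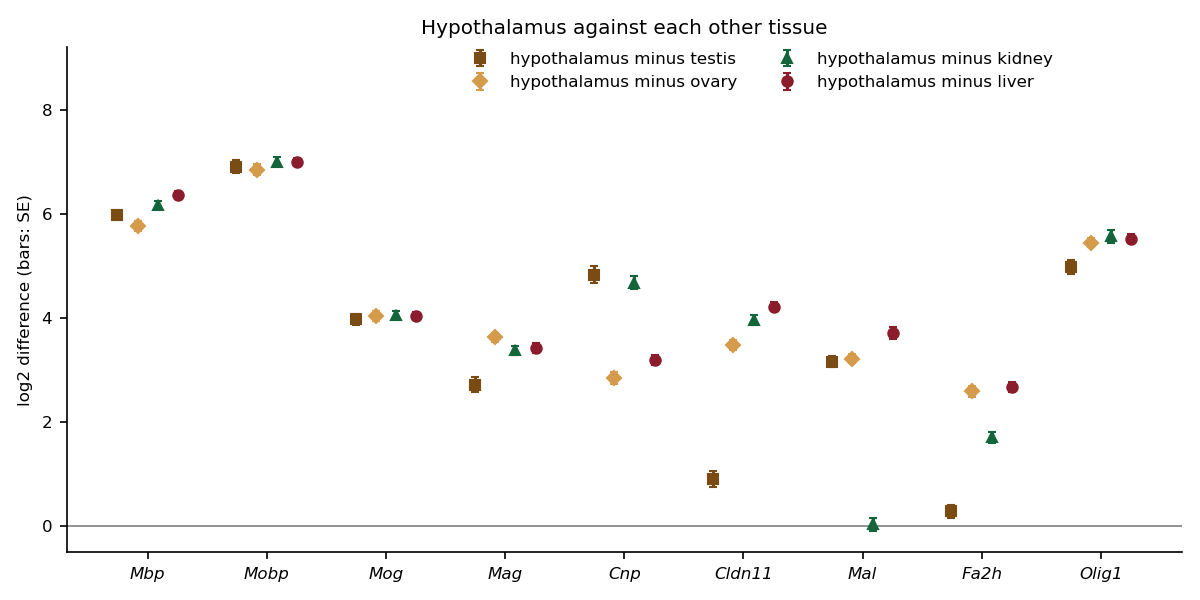
Log2 difference of hypothalamus minus testis, ovary, kidney and liver for each of the 9 genes, with bars for the SE of the limma fit. Points lie well above 0 for most genes, and those of Mal against kidney (0.04) and Fa2h against testis (0.29) lie near 0.

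Mbp (chromosome 18, 82475091 to 82585637 on GRCm38.p6) encodes myelin basic protein, which fuses the cytoplasmic faces of compact myelin. Its intensity was 14485, 13439 and 13039.8 in the male hypothalamus samples, and 12995, 12795 and 12682 in the female ones. It was 158 to 169 in testis, 166 to 236 in ovary, 122 to 162 in kidney and 88.7 to 134 in liver, so no sample of another tissue came near hypothalamus. The log2 difference was 5.76 ± 0.10 (SE) against ovary, the smallest of the 4, and 6.36 ± 0.08 against liver, the largest (adjusted p = 7.39e-13 and 4.44e-16). Outside the brain the means of this brightest probe set ran in the order ovary, testis, kidney, liver, and neighbours in that order were not shown to differ (adjusted p = 0.27, 0.189 and 0.109). Probe sets 1433532_a_at and 1456228_x_at gave the same order, and the other Mbp probe sets did not. Testis came first by 1451961_a_at and last by 1425263_a_at and 1425264_s_at, liver came first by 1454651_x_at, and liver lay above kidney by 1436201_x_at. The ends differed, with ovary above liver by 0.60 ± 0.12 (adjusted p = 0.00125), where the median of all probe sets tested was 0.27. Mbp passed the filter there through ovary alone (2 of 6 liver samples above the level), so that p-value is a description. With technical replicate arrays only the call of ovary against liver was lost (0.48, adjusted p = 0.0612). Kidney minus ovary was -0.41 ± 0.13 (adjusted p = 0.0156), and the call was lost under median centring (-0.16, adjusted p = 0.295), under quantile normalization (-0.15, adjusted p = 0.303), with first arrays only (adjusted p = 0.0513) and without ovary replicate 1 (-0.30, adjusted p = 0.0887).

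Mobp (chromosome 9, 120149742 to 120181488), the second basic protein of compact myelin made by oligodendrocytes, had 7074, 7514 and 6348 in the male hypothalamus samples, and 7592, 6385 and 6149 in the female ones. In the other 18 samples it lay between 2.81 and 18.5, and in all of them under the 40th percentile of its sample, the level below which a probe set counted as dim. The log2 difference was 7.0 ± 0.08 against liver, 7.0 ± 0.08 against kidney, 6.91 ± 0.13 against testis and 6.85 ± 0.10 against ovary (adjusted p from 2.98e-16 to 4.06e-12). The size of such a difference depends on the pseudocount, and for Mobp against liver it was 8.61 with 0.25 times the pseudocount and 5.14 with 4 times the pseudocount. The other 2 probe sets of Mobp gave 6.32 and 5.62 against liver.

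Mog (chromosome 17, 37010740 to 37023398), a surface protein of the outermost myelin layer, had 771, 869 and 888 in the male hypothalamus samples, and 688, 849 and 795 in the female ones. Elsewhere it lay between 2.00 and 11.9, with the highest value in 1 testis sample, and all 18 samples were in the dim range. The log2 difference lay between 3.97 against testis and 4.05 against kidney (SE 0.11 and 0.08). Against liver it was 4.05, with 5.74 and 2.34 for Mog at 0.25 and 4 times the pseudocount.

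Mag (chromosome 7, 30899175 to 30914922), a sialic acid-binding adhesion protein of the myelin layer next to the axon, had 2672, 2605 and 2402 in the male hypothalamus samples, and 2787, 2487 and 2323 in the female ones. Testis was next, with 351, 255 and 453, and ovary (149 to 179), kidney (158 to 244) and liver (149 to 227) lay lower. All 3 testis samples lay above every ovary, kidney and liver sample. Hypothalamus exceeded testis by 2.72 ± 0.15 (adjusted p = 1.07e-08), and testis exceeded kidney by 0.65 ± 0.17 (adjusted p = 0.00496), ovary by 0.91 ± 0.20 (adjusted p = 0.00259) and liver by 0.70 ± 0.18 (adjusted p = 0.00425). In testis against ovary Mag passed the filter through testis alone (2 of 3 ovary samples above the level), so the p-value of that comparison is a description. Kidney and liver were not shown to differ (0.05 ± 0.11, 95% confidence interval -0.20 to 0.29), nor were ovary and liver (-0.21 ± 0.13, interval -0.50 to 0.08) in this scaling. Ovary minus liver was called under median centring (-0.52, adjusted p = 0.00371), under quantile normalization (-0.50, adjusted p = 0.00335) and without female liver replicate 3 (-0.28, adjusted p = 0.048), and kidney minus ovary under median centring (0.50, adjusted p = 0.00542) and quantile normalization (0.48, adjusted p = 0.00529). Kidney minus liver was -0.03 without female liver replicate 3.

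Cnp (chromosome 11, 100574909 to 100591875) encodes the cyclic nucleotide phosphodiesterase of the cytoplasmic channels in myelin. Its brightest probe set has the suffix that Affymetrix gave to designs that may bind other transcripts, and it read 7964, 7875 and 6992 in the male hypothalamus samples, and 8525, 6709.6 and 8075 in the female ones. Ovary had 1222, 947 and 922, liver 701, 831 and 755 in male and 959.9, 712 and 841 in female samples, kidney 171 to 304 and testis 208, 162 and 321. By this probe set ovary and liver thus stood above kidney and testis without overlap, and hypothalamus above all of them. The difference was 2.85 ± 0.11 against ovary (adjusted p = 4.61e-10) and 4.83 ± 0.17 against testis (adjusted p = 2.15e-10). Among the other tissues, kidney minus liver was -1.49 ± 0.13 (adjusted p = 5.72e-07) and testis minus ovary was -1.99 ± 0.22 (adjusted p = 3.38e-05). Kidney minus liver ran from -1.615 to -0.891 over the alternative processings. By probe set 1418980_a_at kidney (224 to 304.4) and liver (302 to 478) overlapped, while by 1449296_a_at they did not (125 to 221 and 238 to 519). Ovary exceeded liver by 0.34 ± 0.13 (adjusted p = 0.0381), with overlapping samples, against a median of 0.27 for all probe sets tested. That call was lost under quantile normalization (adjusted p = 0.18), with first arrays only (0.0826) and without any 1 sample other than male liver replicate 2, female liver replicate 1 and ovary replicate 3 (0.0534 to 0.19), and under median centring the value was -0.05 (adjusted p = 0.771). Testis and kidney were not shown to differ by this probe set (-0.15 ± 0.21, interval -0.61 to 0.30), while the other 2 gave -0.55 ± 0.16 (adjusted p = 0.00755) and -0.50 ± 0.17 (adjusted p = 0.0183), and the mean of the 3 gave -0.40 (adjusted p = 0.0351). The order hypothalamus, ovary, liver, kidney, testis was the same for all 3 probe sets of Cnp.

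Olig1 (chromosome 16, 91269769 to 91271939), the basic helix-loop-helix factor of the oligodendrocyte lineage, had 3510.1, 3676 and 3288 in the male hypothalamus samples, and 3631, 3246 and 3855 in the female ones. Testis had 41.3, 83.9 and 76.0, and ovary, kidney and liver lay between 10.8 and 51.7. All 18 of those samples were in the dim range and their groups overlapped, except that testis lay above ovary and liver. The log2 difference lay between 4.98 ± 0.14 against testis and 5.56 ± 0.12 against kidney (adjusted p = 4.72e-11 and 5.55e-14), and for Olig1 against liver it was 5.52, with 6.50 and 4.05 at 0.25 and 4 times the pseudocount.

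Cldn11 (chromosome 3, 31149920 to 31164326) encodes a claudin that forms the tight junctions between myelin sheets and also those between the Sertoli cells of the testis. It had 1186, 1342 and 1256 in the male hypothalamus samples, and 1035, 1299.5 and 1086 in the female ones. Testis had 488, 591 and 797, ovary 60.9, 57.1 and 71.4, kidney 19.9 to 42.3 and liver 9.36 to 28.4. Every hypothalamus sample lay above every testis sample, every testis sample above every ovary sample and every ovary sample above every kidney and liver sample, while kidney and liver overlapped. Hypothalamus exceeded testis by 0.91 ± 0.15 (adjusted p = 0.000117). Testis exceeded ovary by 2.57 ± 0.19 (adjusted p = 2.3e-06), kidney by 3.06 ± 0.17 (adjusted p = 1.35e-08) and liver by 3.30 ± 0.16 (adjusted p = 5.24e-09). Outside testis and hypothalamus all samples were dim, so Cldn11 passed the filter in these testis comparisons through testis alone, and ovary, kidney and liver were not tested against each other. Of 10 Sertoli cell markers, 9 were tested in testis against ovary, where 2 rose and 5 fell, and 8 against kidney, where 7 rose and 1 fell. Only 5 of the list were bright enough to test between male and female kidney. The others tested against kidney passed the filter through testis alone and had to rise, so part of that count is a description. Of all probe sets tested, 24.9% were called higher and 45.7% lower against ovary, and 31.0% higher and 40.4% lower against kidney. The list's summed intensity was 9095 to 11745 in testis, 8475 to 9318 in hypothalamus, 11124 to 13540.4 in ovary, 2353 to 4881 in kidney and 11262 to 15935 in liver. Clu, the brightest listed gene in every group, made up much of these sums. It averaged 7199 in testis, 7019 in male and 6676 in female hypothalamus, and 6483 in ovary. The Clu means were 2118 in male and 1999.5 in female kidney, and 12483 in male and 11135 in female liver. Rhox5, a homeobox gene of Sertoli cells, averaged 811 ± 10.2 in testis and 79.9 ± 20.9 in ovary (SD, n = 3 each), and Dhh, a Sertoli cell signal, 402 ± 59.5 in testis and 379 ± 72.5 in ovary. Gata1 averaged 342 ± 81.2 in testis and 166.5 ± 17.2 in ovary. Others went the other way, with Tjp1 at 494 ± 124 in testis and 1374 ± 120 in ovary, and Gata4 at 316 ± 57.1 and 1219 ± 106. By sign, 4 of the 9 tested were higher in testis and 5 in ovary. The part of Sertoli cells in the Cldn11 level was not tested.

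Mal (chromosome 2, 127633226 to 127656695) encodes a small membrane protein of lipid rafts, known both from myelin and from the apical sorting route of kidney epithelium. It had 3694, 4147 and 4165 in the male hypothalamus samples, and 3745, 3989 and 4269 in the female ones. Kidney had 2892, 3870.0 and 4274 in male and 3438, 3966 and 5322 in female samples, so kidney and hypothalamus overlapped and kidney spread wider. Testis had 444, 375 and 393, ovary 382, 408 and 378, and liver 185 to 352. Hypothalamus and kidney were not shown to differ (0.04 ± 0.12, interval -0.23 to 0.30, adjusted p = 0.783), where the median of all probe sets tested was 0.18. Under median centring the difference was -0.34 (adjusted p = 0.0227) and under quantile normalization 0.38 (adjusted p = 0.0103), so its direction rests on the scaling. Kidney exceeded liver by 3.68 ± 0.16 (adjusted p = 3.86e-10) and ovary by 3.18 ± 0.16 (adjusted p = 4.17e-08), and the difference of testis minus kidney was -3.12 ± 0.18 (adjusted p = 1.62e-08).

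The second probe set of Mal read 4377, 4381 and 4209 in the male hypothalamus samples, and 4275, 4128 and 3938 in the female ones, and kidney 2376, 3089 and 2915 in male and 3500.4, 3795 and 3088 in female samples. By this design hypothalamus lay above kidney without overlap, by 0.44 ± 0.09 (adjusted p = 0.000363), although under median centring the value was 0.07 (adjusted p = 0.518). It also gave 5.86 ± 0.10 against liver, where the brighter probe set gave 3.71 ± 0.12, and 12.8 to 49.3 in liver. Testis and ovary were not shown to differ by the brighter probe set (0.05 ± 0.15, interval -0.27 to 0.38), but were called under median centring (0.46, adjusted p = 0.0164) and quantile normalization (0.40, adjusted p = 0.0301). All 8 markers of the loop of Henle and distal nephron rose in kidney against liver, where 32.5% of all probe sets were called higher. Their summed intensity was 23782 to 33014 in kidney and 419 to 531 in liver. Only 1 of the 8 was bright enough to test between male and female liver. The others thus passed the filter against liver through kidney alone and had to rise to be tested. Umod, the secreted protein of the thick ascending limb, averaged 9786 ± 492 in male and 10409 ± 1348 in female kidney (SD, n = 3 each). The part of these cells in the Mal level was not tested.

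Fa2h (chromosome 8, 111345138 to 111393821), the hydroxylase that makes the hydroxy fatty acids of myelin galactolipids, had 1590.1, 1783 and 1777 in the male hypothalamus samples, and 1622, 1399 and 1911 in the female ones. Testis had 1409.7, 1452 and 1216, so the 2 tissues overlapped. Ovary had 268, 228 and 221, kidney 485, 398 and 346 in male and 451, 628 and 635 in female samples, and liver 193 to 267. Hypothalamus exceeded testis by 0.29 ± 0.12 (adjusted p = 0.0475), which is no more than the median of 0.33 over all probe sets tested there. The call was lost with the replicate block (adjusted p = 0.0700), with first arrays only (0.0725) and without any 1 sample other than female hypothalamus replicate 2 and testis replicate 2 (0.0524 to 0.131), and under median centring the value was -0.21 (adjusted p = 0.151). Testis exceeded ovary by 2.30 ± 0.16 (adjusted p = 1.4e-06), kidney by 1.42 ± 0.16 (adjusted p = 7.06e-06) and liver by 2.38 ± 0.14 (adjusted p = 2.08e-08). Kidney exceeded ovary by 0.89 ± 0.14 (adjusted p = 0.000332) and liver by 0.97 ± 0.12 (adjusted p = 1.36e-05), and ovary and liver were not shown to differ (0.08 ± 0.12, interval -0.18 to 0.34). All 7 germ cell markers rose in testis against ovary, where 24.9% of all probe sets were called higher, with summed intensities of 82611 to 105818 in testis and 252 to 379.9 in ovary. In kidney against ovary 0 of the 7 were bright enough to test. All 7 thus passed the filter through testis alone and had to rise to be tested. The part of germ cells in the Fa2h level was not tested.

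Between the tissues other than hypothalamus, Mobp, Mog and Olig1 were too dim to test, and Cldn11 was tested only where testis was 1 of the tissues, so the counts that follow cover the members bright enough to test. In testis against liver 6 were tested, 5 rose and 1, Cnp, fell, where 34.6% of all probe sets were called higher and 38.7% lower (73.3% in all), and in testis against kidney 6 were tested, 3 rose (Mag, Cldn11 and Fa2h) and Mal fell, where 31.0% were called higher and 40.4% lower (71.3%). In testis against ovary 6 were tested, the same 3 rose and Cnp fell, where 24.9% were called higher and 45.7% lower (70.6%). In kidney against liver 5 were tested, 2 rose (Mal and Fa2h) and Cnp fell, where 32.5% were called higher and 23.3% lower (55.8%), and in kidney against ovary 5 were tested, the same 2 rose and Mbp and Cnp fell, where 21.0% were called higher and 40.1% lower (61.1%). In ovary against liver 5 were tested and 3 rose (Mbp, Mal and Cnp), where 46.5% were called higher (69.1% in either direction), and 1 gene was called there with first arrays only, with the technical replicate arrays only or without ovary replicate 2. Mal rose by 0.55 ± 0.18 in testis against liver and by 0.50 ± 0.16 in ovary against liver, and Mbp rose by 0.40 ± 0.13 in testis against liver. The Mal call against liver was lost in testis without testis replicate 1 (adjusted p = 0.0594), and in ovary under median centring (0.14, adjusted p = 0.425), quantile normalization (0.16, adjusted p = 0.37), with first arrays only (0.34, adjusted p = 0.147) and without ovary replicate 2 (adjusted p = 0.0595). The Mbp call in testis against liver was lost with technical replicate arrays only (0.22, adjusted p = 0.339). Mbp passed the filter against liver through testis alone and through ovary alone, so its calls there are descriptions. Median centring gave a share of called probe sets that were higher of 44.0% in place of 67.4% in ovary against liver, 56.7% in place of 34.4% in kidney against ovary, and 52.2% in place of 35.3% in testis against ovary.

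The probe sets of Mbp differed among themselves. Of its 8 probe sets, 6 read 8298 to 14485 in hypothalamus and at most 236 in any sample elsewhere, much of it in the dim range. Probe set 1425263_a_at had 611 to 894 in hypothalamus and 213 to 253 in ovary, a ratio of means of 3.23, and a log2 difference against ovary of 1.5 ± 0.12. Probe set 1425264_s_at had 464 to 579 in hypothalamus and 322 to 408 in ovary, with a ratio of 1.38 and a difference of 0.42 ± 0.10 (adjusted p = 0.00223). The same probe set gave 123 to 182 in kidney and 23.0 to 35.2 in testis, and its difference of testis minus ovary was -2.44 ± 0.16 (adjusted p = 1.12e-06), where the brightest Mbp probe set gave -0.21 ± 0.16. The testis samples of 1425264_s_at were dim, so it passed the filter there through ovary alone and that p-value is a description. Mbp is known to give several transcripts from more than 1 start site, and the files do not say which of them each design reads. For Cnp the ratio of hypothalamus to the next tissue was 5.43 to 7.46 over 3 probe sets.

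**Figure D3:**
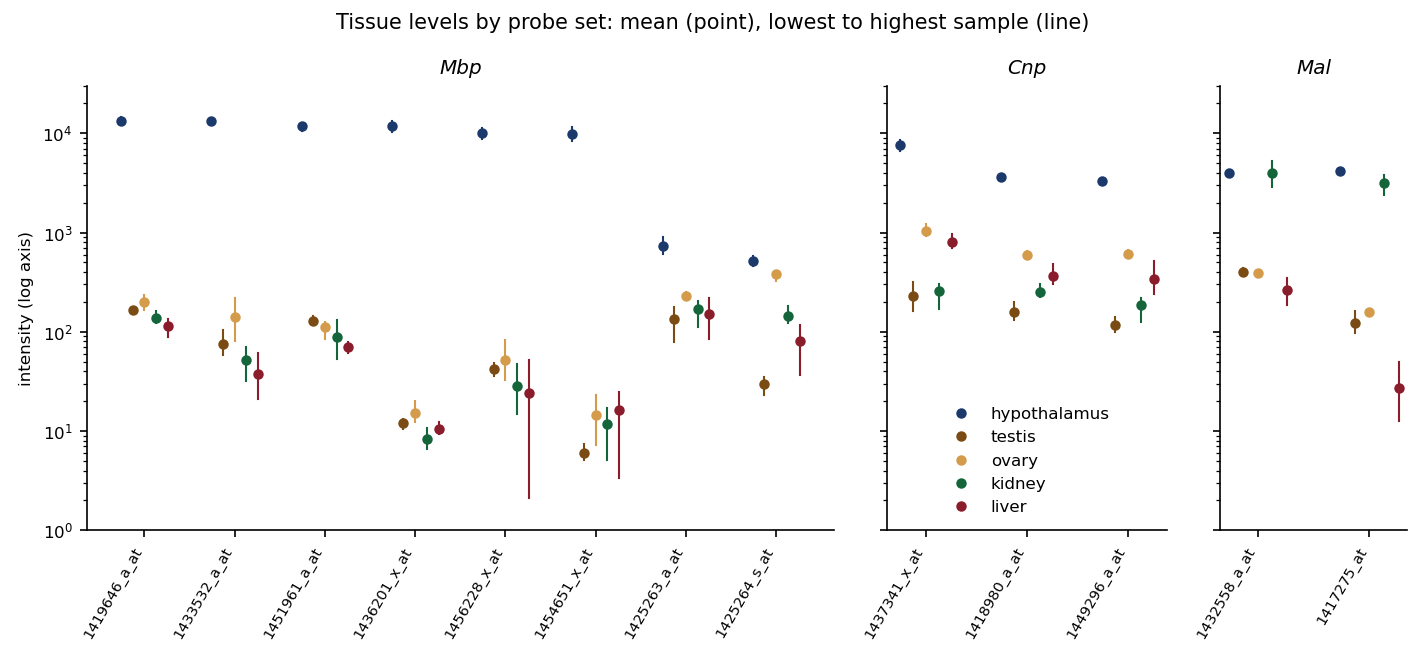
Mean intensity (log axis) of each probe set of Mbp, Cnp and Mal in hypothalamus, testis, ovary, kidney and liver, with lines from the lowest to the highest sample. The last 2 Mbp probe sets show hypothalamus at 739.8 ± 102 and 521 ± 42.1 (mean ± SD, n = 6) and ovary at 229 ± 21.4 and 379 ± 49.0 (n = 3), while in the other 6 every tissue outside the brain lies at 236 or lower, and both Mal probe sets show kidney beside hypothalamus.

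Between male and female hypothalamus, 0 of the 9 genes were called by limma, and 0 had an unadjusted p under 0.05, where 7 of 13754 probe sets (0.0509%) were called. The log2 differences lay between -0.03 for Olig1 and 0.14 for Cldn11, 7 of the 9 were positive, and the 95% intervals of all 9, from the fit without pairing, lay within -0.28 and 0.38. These intervals leave room for a level in males up to 1.30-fold higher or 1.22-fold lower. Mbp had 14485, 13439 and 13039.8 in males and 12995, 12795 and 12682 in females, a difference of 0.09 ± 0.09. By the probe sets that stand for the genes, it was the 1 gene whose 3 male values lay above its 3 female values. Mbp probe set 1454651_x_at and Mobp probe set 1421010_at were also separated that way, so 3 of the 21 probe sets of the members were. Of all probe sets tested, 3.25% were. With the replicate number as a block, 0 of the 9 were called or had an unadjusted p under 0.05, and the intervals lay within -0.28 and 0.33. Mbp, Mog and Cldn11 were higher in the male sample in all 3 same-numbered pairs, with blocked differences of 0.09 ± 0.08, 0.11 ± 0.08 and 0.14 ± 0.08 (adjusted p = 0.973 for each). Of the 21 probe sets, 2 had an unadjusted p under 0.05 and 0 were called: Mbp probe set 1454651_x_at (0.36 ± 0.10) and Mobp probe set 1421010_at (0.24 ± 0.09), both at an adjusted p of 1. In kidney 5 genes were tested and 0 were called, with 1 at an unadjusted p under 0.05, where 32 of 13799 probe sets (0.232%) were called, or 144 with the replicate number as a block. That gene was Fa2h, with 485, 398 and 346 in males and 451, 628 and 635 in females, overlapping groups and a difference of -0.44 ± 0.18 (adjusted p = 0.971). In liver 4 genes were tested and 0 were called or had an unadjusted p under 0.05, where 7 of 13795 probe sets (0.0507%) were called, or 11 with the block. The male minus female difference of 0 of the 9 genes was called as differing between hypothalamus and kidney (1 at an unadjusted p under 0.05), hypothalamus and liver (0) or kidney and liver (1), where 0.208%, 0.0178% and 0.237% of 16864 probe sets were called.

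Of 25 other myelin protein genes, 17 were measured. In hypothalamus 14 rose and 3 fell against liver, 9 rose and 6 fell against kidney, 15 rose and 2 fell against testis, and 12 rose and 4 fell against ovary, with median differences of 1.25, 0.26, 1.98 and 1.25. Of all probe sets tested, 50.2%, 46.3%, 49.6% and 37.5% were called higher in that order, and the count against kidney is near its share. Between the other tissues 13 or 14 of the 17 were bright enough to test, so the rest were tested through hypothalamus alone. Plekhb1, a membrane-associated protein of myelin, averaged 6849 ± 309.6 in male and 6660.1 ± 1032 in female hypothalamus (SD, n = 3 each), against 1080.4 ± 349.8 in female kidney, its highest group elsewhere. Tspan2, an oligodendrocyte tetraspanin, averaged 3199 ± 60.4 and 3110.3 ± 121 there, against 281 ± 65.7 in ovary. Other genes of the list were as bright or brighter outside the brain. Car2, the carbonic anhydrase of oligodendrocytes and of kidney tubule, averaged 5729.6 ± 246 in male hypothalamus and 7201 ± 442 in male kidney, and fell by 0.42 on the log2 scale in hypothalamus against kidney (adjusted p = 0.000405). Ndrg1 fell by 2.95 in hypothalamus against kidney (adjusted p = 3.18e-13), Qdpr fell by 0.44 against liver (adjusted p = 0.00039), and Sirt2, a deacetylase of oligodendrocyte cytoplasm, fell by 0.32 against testis (adjusted p = 0.0311). Between the sexes of hypothalamus limma called 0 of the 17, with 0 at an unadjusted p under 0.05.

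Of 16 myelin lipid enzymes, 13 were measured, and these moved in both directions: 7 rose and 6 fell in hypothalamus against liver, 4 rose and 9 fell against kidney, 11 rose and 2 fell against testis, and 6 rose and 5 fell against ovary. Of all probe sets tested, 50.2%, 46.3%, 49.6% and 37.5% were called higher in that order, and the count against liver is near its share. Ugt8a, which adds galactose to ceramide to make galactocerebroside, had 2268, 2136 and 1881 in male and 2513, 1859 and 1993 in female hypothalamus. In kidney it had 2236, 1506 and 1967 in male samples and 226, 296 and 259.7 in female samples, so the male kidney samples overlapped hypothalamus, with 1 below it, and the female ones lay far below. The difference of male minus female was 2.65 ± 0.18 in kidney (adjusted p = 0.00135) and -0.01 ± 0.13 in hypothalamus, and Ugt8a was the 1 gene of the myelin and oligodendrocyte lists called between the sexes of any tissue. Testis had 120.5, 125 and 103, ovary 34.8, 44.9 and 33.0 and liver 20.5 to 27.4. Gal3st1, which sulfates the product of Ugt8a and was picked after its values were seen, had 476, 492 and 481 in male and 514, 497 and 654 in female kidney (-0.17 ± 0.15, adjusted p = 1). It had 413, 398 and 472 in male and 419, 388 and 465 in female hypothalamus. Aspa, which frees acetate for lipid synthesis, averaged 904 ± 38.8 in male hypothalamus and 2701 ± 803 in male kidney, and fell by 1.45 in hypothalamus against kidney (adjusted p = 1.92e-06). Fasn, the fatty acid synthase, rose in hypothalamus against kidney by 1.62 (adjusted p = 8.18e-07) and fell by 0.62 against ovary (adjusted p = 0.00108), and Degs1, the dihydroceramide desaturase, fell by 1.24 against kidney (adjusted p = 4.67e-09).

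**Figure D4:**
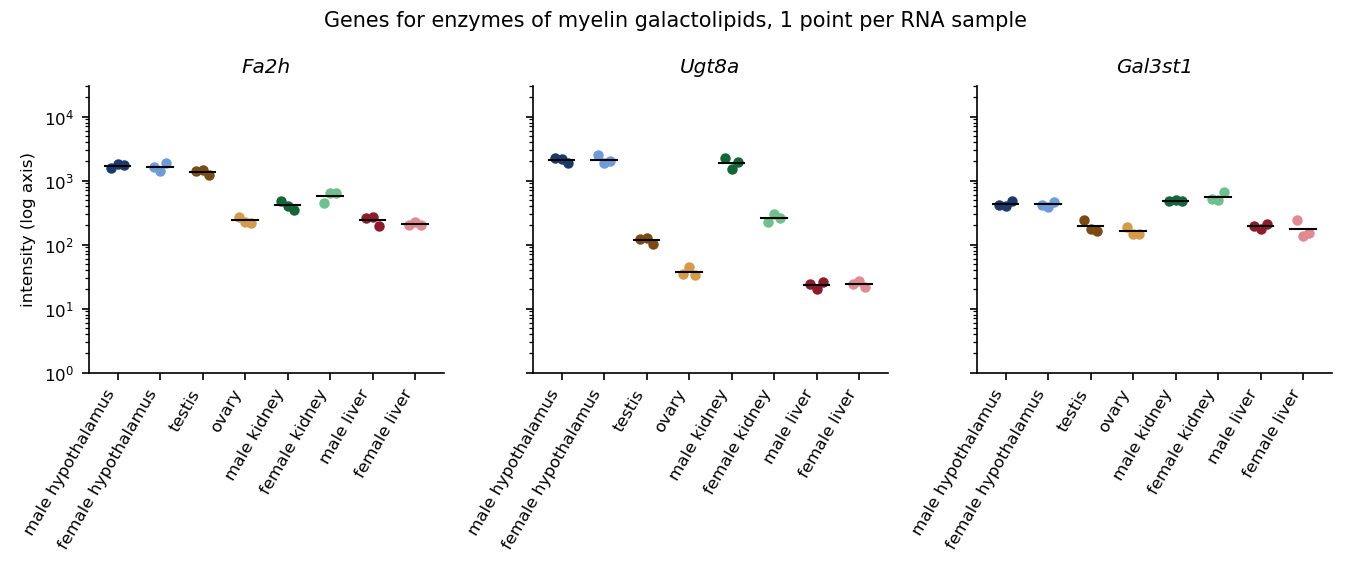
Intensity (log axis) of Fa2h, Ugt8a and Gal3st1 in the 24 RNA samples, 1 point per sample, with the mean of each group of 3 as a line. Ugt8a averaged 1903 ± 369 in male kidney and 260.5 ± 34.6 in female kidney (SD, n = 3 each), while the kidney groups of Fa2h and of Gal3st1 lie close together.

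Of 11 other transcription factors of the oligodendrocyte lineage, 6 were measured and 5 were bright enough to test, and these 5 rose in hypothalamus against each of liver, kidney, testis and ovary. The shares of all probe sets called higher were 50.2%, 46.3%, 49.6% and 37.5% in that order. Outside hypothalamus Olig2 averaged at most 14.1 and Nkx2-2 at most 35.8, in the dim range. Both passed the filter through hypothalamus alone and had to rise to be tested. Only 1 of the 5 was bright enough to test between testis and ovary. The number was 2 between male and female kidney, and 3 between male and female liver. The rest passed against those tissues through hypothalamus alone. Most of the count against testis, ovary and kidney is thus a description, and so is part of that against liver. Olig2, the partner of Olig1, averaged 458 ± 43.2 in male and 425 ± 46.2 in female hypothalamus and 13.5 ± 12.5 in testis (SD, n = 3 each). Sox10 averaged 842 ± 34.9 and 755 ± 92.1 there and 266 ± 16.3 in testis, and Myrf, the membrane-bound regulator of myelin genes, 1149 ± 143 and 947 ± 99.8 there and 266 ± 103 in female liver. Nkx2-2 rose by 2.72 and Tcf7l2 by 1.81 against liver, and Nkx6-2 was too dim to test. Of 9 markers of oligodendrocyte precursors, 4 were measured. All 4 rose in hypothalamus against liver and testis, 3 rose and 1 fell against kidney, and 2 rose and 2 fell against ovary. In testis against liver only 1 of the 4 was bright enough to test. The others thus passed the filter through hypothalamus alone against both tissues. Ptprz1, a receptor phosphatase, rose by 3.82 against liver, while Pdgfra, the growth factor receptor also known from stromal cells, averaged 690.2 ± 64.1 in male hypothalamus and 1129 ± 67.7 in ovary and fell by 0.77 against ovary (adjusted p = 1.25e-05). Of 9 Schwann cell markers 4 were measured and 3 tested, of which 2 rose against liver and testis, 3 against kidney, and 1 rose and 2 fell against ovary. One of the 3, Sox2, averaged 715 in male and 704.5 in female hypothalamus and at most 11.9 in any other group. It passed the filter through hypothalamus alone and had to rise to be tested. Between male and female kidney only 1 of the list was bright enough to test, so the others passed against kidney through hypothalamus alone. Pmp22, a protein of peripheral myelin, rose in hypothalamus against liver by 1.74 (adjusted p = 1.75e-10) and fell by 1.07 against ovary (adjusted p = 2.46e-07), and the list's sum was 1768 to 1922 in hypothalamus, 587 to 749 in testis, 2215 to 2334 in ovary, 547 to 775 in kidney and 373 to 587 in liver.

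Markers of neurons and most of those of astrocytes were also higher in hypothalamus. All 12 neuron markers rose in hypothalamus against each of the 4 other tissues, and their summed intensity was 39237 to 41552 in hypothalamus and 397 to 956 elsewhere. Between tissues other than hypothalamus only 1 to 3 of the 12 were bright enough to test. Most of them thus passed the filter through hypothalamus alone and had to rise to be tested, so this count is a description. Of 8 astrocyte markers, 6 rose and 1 fell against liver, 7 rose and 1 fell against kidney and against ovary, and 8 rose against testis, and the list's sum was 25709 to 29172 in hypothalamus and 1766 to 14006 elsewhere. Of 7 measured microglia markers, 6 were tested in hypothalamus against each tissue: 2 rose and 4 fell against liver, 4 rose and 0 fell against kidney, 5 rose and 1 fell against testis, and 6 rose against ovary. Their sum was 8895 to 11580.4 in hypothalamus, 6609 to 10343.8 in testis, 4885 to 5446 in ovary, 4580 to 8181 in kidney and 9831 to 24555 in liver. Of all probe sets tested, 50.2% were called higher against liver, 46.3% against kidney, 49.6% against testis and 37.5% against ovary. Of the 8 astrocyte markers, 4 were bright enough to test between male and female kidney and 5 between male and female liver. Between testis and ovary 6 were. For the 6 tested microglia markers these numbers were 4, 5 and 4. At least the rest of both lists passed the filter against those tissues through hypothalamus alone and had to rise to be tested. Their part of the counts is a description. No marker was listed at 0 in any sample. The part of each cell type in the levels of the myelin genes was not tested. The labelled tissues carried their own markers: ovary markers summed to 18906 to 21594 in ovary and at most 4885 elsewhere, proximal tubule markers to 49874 to 60500.3 in kidney and at most 1572 elsewhere, and hepatocyte markers to 112295 to 130589 in liver, with 8879 to 15612 in hypothalamus and 6427 to 17609 in kidney. Of the hypothalamus sum, Ttr, the thyroid hormone carrier that choroid plexus also makes, gave a mean of 13414 in males and 11719.8 in females.

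Over the 24 samples the members fell into unlike patterns. The Pearson correlation of log2 values, which is set mostly by the 5 tissues, was 0.979 to 0.999 between any 2 of Mbp, Mobp, Mog, Mag and Olig1. Cnp correlated with these at 0.856 to 0.916 and Cldn11 at 0.830 to 0.893, while Mal reached at most 0.581 with any member, which was with Fa2h. Fa2h and Cldn11, both bright in testis, correlated at 0.919. The 3 other genes most like each member by this measure, among 10718 compared, differed accordingly. They were Glrb, Mobp and Nefm for Mbp (0.998 to 0.999), Tagln3, Resp18 and Stmn4 for Mobp (0.999), and Tagln3, Scn1a and Slc4a10 for Mog (0.999). For Mag they were Ctnnd2, Ina and Cadps (0.986 to 0.987) and for Olig1 Ctnnd2, Sgip1 and Tagln3 (0.995 to 0.998). For Cnp they were Ank, Rabep1 and Psd3 (0.977 to 0.988), and Ank averaged 2888 in hypothalamus, 332 in testis, 731 in ovary, 306 in kidney and 705 in liver. For Cldn11 they were Acsl6, Mllt11 and Mapk8ip2 (0.982 to 0.988), and Acsl6 averaged 2682 in hypothalamus and 1721 in testis, with 54.7 to 84.3 elsewhere. For Mal they were Dmtn, Pvalb and Atp1b1 (0.983 to 0.991), and Pvalb averaged 1650.1 in hypothalamus and 2004 in kidney, with 95.5 to 105 elsewhere. For Fa2h they were Frs3, Chn1 and Ahi1 (0.955 to 0.958), and Frs3 averaged 525 in hypothalamus and 501 in testis.

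Among the 6 hypothalamus samples the members' coefficient of variation had a median of 9.02% over the 9 genes, against 7.76% over 4403 probe sets whose hypothalamus mean lay above that of the dimmest member. No sample was high or low for all members: the highest value fell in each of 5 samples for 1 to 3 genes, and the lowest in 4 samples for 1 to 3 genes.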

How the data were processed

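Intensities on a linear scale for 48 arrays were used as the authors deposited them, and the software that made them is not given in the sources used here. All arrays had a 2% trimmed mean near 500.2, array medians of 163 to 276, and correlations of 0.966 to 0.990 between the 2 arrays of a sample. Samples were grouped by their titles. Each array was brought to the same trimmed mean, log2 of intensity plus 48.3 (the 20th percentile) was taken, and the 2 arrays of a sample were averaged. Probe sets above the 40th percentile of a sample in at least 3 samples of a comparison were tested with limma 3.58.1 in R 4.3.3, with Benjamini-Hochberg adjustment over all of them. The fits were tested on simulated data. Samples of the same replicate number deviated together between the sexes of hypothalamus (correlations of 0.101 to 0.392), kidney (0.426 to 0.627) and liver (0.139 to 0.535), and between kidney and liver (0.159 to 0.478). The main fits did not use this pairing, so their SEs and p-values ignore it. A fit with the replicate number as a block was run as an alternative, and its results are given where the block is named. The text names all members, of each list up to 6 genes with the highest mean intensity in the list's tissue, list genes called between the sexes, and the 3 genes most like each member. The members and lists were chosen with earlier results of these data known. Alternatives were other scalings, pseudocounts, filters, arrays, probe set rules, a replicate block, 1 fit of all groups, an intensity trend, each sex alone, and each sample left out in turn. Figures were drawn with matplotlib 3.10.9.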

Additional observations from a re-analysis of the deposited data

Results flagged for a closer look

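The male minus female difference of Ugt8a, the enzyme that makes galactocerebroside, differed between tissues in limma's interaction test. Hypothalamus minus kidney was -2.66 ± 0.21 (SE, adjusted p = 3.6e-06), and kidney minus liver was 2.68 ± 0.21 (adjusted p = 3.12e-06). Ugt8a averaged 1903 ± 369 in male and 260.5 ± 34.6 in female kidney, 2095 ± 197 in male and 2122 ± 345 in female hypothalamus, and 23.6 ± 2.79 in male and 24.3 ± 3.03 in female liver (SD, n = 3 each), where the liver values were in the dim range. All 3 male kidney samples lay above all 3 female ones.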

How the results depend on the processing

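The counts of member genes called kept within 1.5 times their value in 346 of 349 alternatives, and the exceptions were in ovary against liver, where 3 genes became 1 with first arrays only, with technical replicate arrays only and without ovary replicate 2 (1 to 3 over samples left out). Single genes kept direction and call in 1588 alternatives, 20 reversed, 10 gained and 36 lost a call, and the cause was not tested. Mal in hypothalamus minus kidney reversed under median centring (-0.340), technical replicate arrays only (-0.007), female samples only (-0.064), and without replicate 1 of male or female kidney (-0.044 to 0.124 over samples left out), and was called under quantile normalization (0.38) and with the mean of its probe sets (0.24). Median centring reversed Fa2h in hypothalamus minus testis (-0.207), Mag in kidney minus liver (-0.022), Cnp (-0.047) and Fa2h (-0.256) in ovary minus liver, and Mbp in testis minus ovary (0.150). Quantile normalization reversed Mag in kidney minus liver (-0.023), Fa2h in ovary minus liver (-0.242) and Mbp in testis minus ovary (0.139). Mag in kidney minus liver also reversed in male samples only (-0.041) and without female liver replicate 3 (-0.030 to 0.094 over samples left out), Fa2h in ovary minus liver with first arrays only (-0.040), Cnp in testis minus kidney without testis replicate 2 (-0.373 to 0.027), and Mal in testis minus ovary with technical replicate arrays only (-0.117), the mean of its probe sets (-0.113) and without testis replicate 1 (-0.008 to 0.102). With the replicate number as a block, Fa2h in hypothalamus minus testis lost its call (0.29, adjusted p = 0.07), and no other call of a member changed. Several small differences between tissues thus changed with the scaling, and for dim values the size of a difference depends on the pseudocount.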
